A study of Mus musculus with 27 samples.

Results

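The day 2 to day 4 step of control embryoid bodies was read from 4 arrays, 2 at each day, of the 27 arrays of the series. The arrays were chosen by their titles, which give the control shRNA and the day, and no measured value entered the choice. All 4 held RNA of mouse embryonic stem cells of the AB2.2 line whose lentiviral vector encoded eGFP, a fluorescent protein, and a short hairpin RNA (shRNA, which lowers the transcript it matches) directed at firefly luciferase, absent from mouse cells. The cells had been sorted on eGFP and then aggregated in hanging drops into embryoid bodies, balls of cells in which stem cells differentiate without an added pattern, so both days lie before the move to culture plates at day 4.5. The other arm of the study carried an shRNA against Sox17 in the same vector, and its 4 arrays of days 2 and 4 are used for 1 comparison. The labels call the 2 arrays of a group biological replicates but do not say whether these were separate transductions. The p-values thus measure only the spread between arrays of the same group, which may be technical. That spread was pooled over all 27 arrays.

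At gastrulation the epiblast, the pluripotent layer of the embryo, forms a primitive streak at its posterior side. Nodal, Wnt, Bmp and Fgf signals start the streak, and cells passing through it turn on T-box and homeobox factors, exchange cadherins, move, and become mesoderm or definitive endoderm. Embryoid bodies pass through a like sequence without the shape of the embryo, and the onset of these genes is used to time them.

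The values are log2 expression levels of probe sets, so a difference of 1 is a doubling. A gene was called changed at an adjusted p below 0.05 in limma, with Benjamini-Hochberg adjustment over 13296 genes, and "rose" and "fell" are used of called genes only. Replicate agreement was closer at day 2 (SD of 0.22 between arrays over genes, r = 0.994) than at day 4 (0.34, r = 0.983). The bioB hybridisation controls, bacterial transcripts added to each sample, read 9.32 and 9.23 at day 2, 9.49 on replicate 1 of day 4 and 6.99 on replicate 2 of day 4. The 18S ribosomal RNA probe sets read 9.41, 8.48, 7.91 and 5.96 in that order. Only replicate 1 of day 4 thus shared the spike-in level of day 2, and its values are given separately beside those of both arrays. With the bioB level of each array as a covariate in the fit, 1774 genes rose and 2009 fell between the days.

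Between day 2 and day 4, 2059 genes rose (15.5% of those tested) and 2262 fell (17.0%), together 32.5%. Of these, 652 rose at least 2-fold (4.90%) and 385 fell at least 2-fold (2.90%). The median change over all genes was -0.06. With replicate 1 of day 4 as the sole day 4 array, 1265 genes rose (9.51%) and 1224 fell (9.21%), and with replicate 2 alone 1947 rose (14.6%) and 2625 fell (19.7%). Without replicate 1 of day 2 the rises numbered 1255, and without replicate 2 of day 2 the falls numbered 1342. All 4321 called genes had the same sign on both day 4 arrays, and 2055 of them were also called with each day 4 array on its own. Of the 1037 genes called with a change of at least 2-fold, 898 were called with replicate 1 alone. Both day 4 arrays lay above both day 2 arrays for 29.2% of all genes and below them for 35.6%, so absence of overlap by itself was common here.

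**Figure D1:**
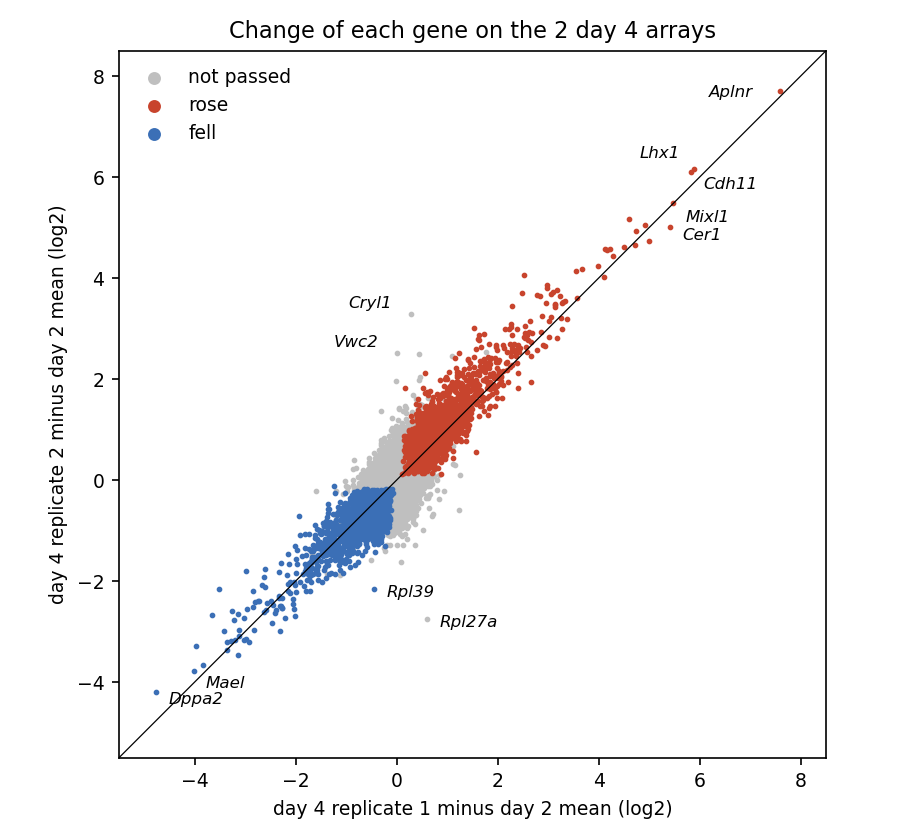
Change of each of the 13296 genes from the day 2 mean to replicate 1 of day 4 (x axis, log2) against the change to replicate 2 of day 4 (y axis, log2), coloured by whether the gene rose, fell or did not pass and with some genes named. The points follow the diagonal (Pearson's r = 0.872 across genes, which are not independent replicates and share the day 2 mean), and a small set lies off it.

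Most factors that mark the primitive streak were low at day 2 (list median 5.45 and 5.40) and high at day 4 (8.19 and 8.27), and Lhx1, Mixl1 and Mesp1 were among the 12 largest rises of the array. Of 16 streak regulators tested, 13 rose (15.5% of all genes did) and 1, Nodal, fell, with a median change of 2.59 beside -0.06 over all genes. With replicate 1 of day 4 alone 13 also rose and the median was 2.48, and 2 fell without replicate 1 of day 4. T was not tested, since no probe set carried its symbol alone in the platform annotation. Wnt3 and Cdx1 of the same list were on the array but did not pass the level filter, so they were not tested either.

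Eomes, a T-box factor needed for mesoderm and endoderm formation, read 6.95 and 7.30 at day 2, then 10.00 and 10.38 at day 4. Mixl1, a paired-type homeobox factor of the streak, read 4.51 and 4.72 and then 10.08 and 10.10. The 2 day 4 arrays of Mixl1 differed by 0.019, the closest of all genes described in this way. Eomes rose by 3.06 (SE 0.365, adjusted p = 7.8e-06, limma) and Mixl1 by 5.47 (SE 0.371, adjusted p = 1.2e-08), a 44.4-fold rise. In the later control arrays the day 5 means were 8.31 for Eomes and 6.03 for Mixl1, between their day 2 and day 4 levels.

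Genes of the anterior end of the streak, the source of the node, prechordal plate and endoderm, rose with them. Lhx1, a LIM homeobox factor of the head organiser, read 4.23 and 3.70 at day 2, then 9.85 and 10.13 at day 4, a rise of 6.02 (SE 0.756, adjusted p = 1.3e-05). Gsc (goosecoid), a homeobox factor of the organiser, read 4.27 and 4.18 and then 7.16 and 6.88, a rise of 2.79 (SE 0.276, adjusted p = 9.2e-07). Foxa2, the forkhead factor of node, notochord and endoderm, read 5.74 and 5.89 and then 9.09 and 8.81, a rise of 3.13 (SE 0.271, adjusted p = 1.9e-07). In all 3 genes both day 4 arrays stood over 2 log2 units above the higher day 2 array. Gsc had a day 5 mean of 4.42, close to its day 2 values, whereas that of Foxa2 was 8.60.

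Genes of the posterior and middle streak rose as well. Evx1, a homeobox factor of the posterior streak, read 5.56 and 5.42 at day 2, then 8.36 and 8.43 at day 4, a rise of 2.90 (SE 0.216, adjusted p = 3.0e-08). Sp5, a zinc finger factor and direct Wnt target, read 5.35 and 5.44 and then 8.09 and 8.30, a rise of 2.80 (SE 0.259). Fgf8, the ligand that streak cells need to leave the streak, read 4.87 and 4.98 and then 7.19 and 7.46, a rise of 2.40 (SE 0.332, adjusted p = 3.6e-05). None of these 3 genes had day 4 values within 2 log2 units of day 2. Wnt3a, a ligand of the later streak and tailbud, read 6.43 and 6.38 and then 6.36 and 5.82 and did not pass (-0.32, adjusted p = 0.162), and Cdx2, a posterior homeobox factor, did not pass either (0.55, adjusted p = 0.147).

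**Figure D2:**
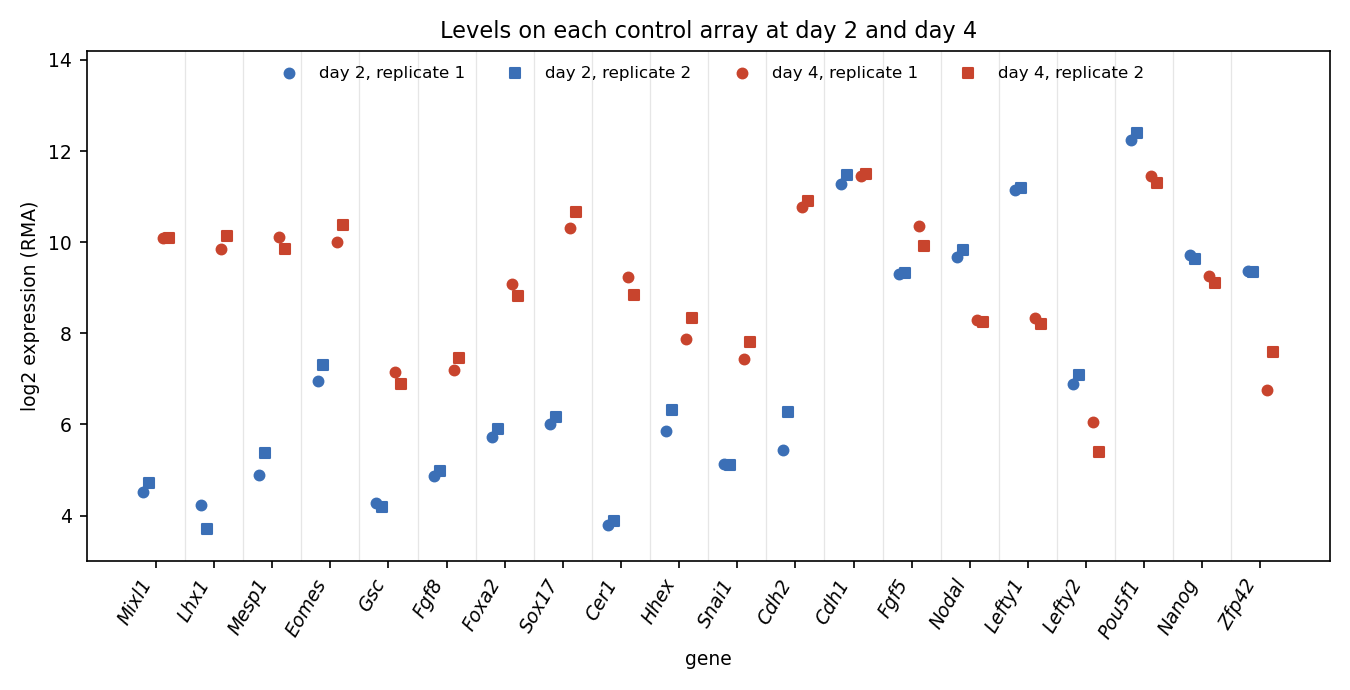
Log2 expression level (y axis) of the genes always described, on each of the 2 day 2 and 2 day 4 control arrays, with replicate 1 and replicate 2 of day 4 drawn apart. The 2 day 4 arrays lie between 0.019 and 0.840 of each other, and 12 of the 20 genes tested rose and 4 fell.

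The starts of these genes were read for short motifs of the factors that carry Wnt, Nodal and T-box signals to DNA, since the members rose together. Of 26 genes that rose in the streak, definitive endoderm and Nodal target lists, 19 matched the RefSeq promoter table (GRCm38.p6, 250 bases before to 50 after the start), with 21 promoters. The Tcf/Lef motif CTTTGAT, on either strand, was in 3 of the 21 (14.3%) and in 3.73% of all promoters in the table. Over the 13639 promoters of genes tested it was in 2.6%. The Foxh1 motif AATNCACA was in 1 of 21 (4.76%, all promoters 3.60%, genes tested 2.15%). The T-box motif AGGTGTGA was in 1 of 21 (4.76%, all promoters 1.28%, genes tested 0.916%). The 3 motifs do not overlap each other in the sequences printed here. The 4 promoters that hold a match are shown 5′ to 3′ on the strand of the gene, with the match in capitals, which on the opposite strand reads as the reverse complement (ATCAAAG, TCACACCT). They lie at chr7:79793541-79793840 on the minus strand for Mesp1, chr2:148045415-148045714 on the minus strand for Foxa2, chr2:70474673-70474972 on the plus strand for Sp5 and chr7:79810477-79810776 on the plus strand for Mesp2. A match describes letters and not a bound site, and its lack in the other promoters says only that these letters are not in that window.
Mesp1: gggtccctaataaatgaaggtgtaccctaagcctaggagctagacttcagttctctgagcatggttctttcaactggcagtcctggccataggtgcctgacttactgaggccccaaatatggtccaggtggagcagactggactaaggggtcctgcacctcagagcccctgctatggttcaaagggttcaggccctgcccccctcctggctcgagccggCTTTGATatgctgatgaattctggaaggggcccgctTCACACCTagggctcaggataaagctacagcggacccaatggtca
Foxa2: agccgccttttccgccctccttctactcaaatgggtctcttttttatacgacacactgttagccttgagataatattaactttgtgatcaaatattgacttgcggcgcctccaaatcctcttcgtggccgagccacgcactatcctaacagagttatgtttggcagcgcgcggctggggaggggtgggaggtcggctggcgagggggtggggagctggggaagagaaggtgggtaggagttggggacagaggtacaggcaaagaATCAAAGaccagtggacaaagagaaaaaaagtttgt
Sp5: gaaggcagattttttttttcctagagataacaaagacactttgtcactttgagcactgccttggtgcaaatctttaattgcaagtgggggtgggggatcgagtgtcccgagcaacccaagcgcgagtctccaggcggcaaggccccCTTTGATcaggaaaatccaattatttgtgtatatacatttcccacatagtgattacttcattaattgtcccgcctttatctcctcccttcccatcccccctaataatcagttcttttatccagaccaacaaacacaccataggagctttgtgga
Mesp2: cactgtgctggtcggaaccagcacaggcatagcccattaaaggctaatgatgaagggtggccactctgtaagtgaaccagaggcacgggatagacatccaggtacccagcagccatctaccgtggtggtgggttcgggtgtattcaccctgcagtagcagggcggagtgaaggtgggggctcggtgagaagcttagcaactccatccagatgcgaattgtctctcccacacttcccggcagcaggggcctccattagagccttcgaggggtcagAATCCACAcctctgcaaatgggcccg

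The promoter of Mesp1 holds both a Tcf/Lef and a T-box match. Mesp1, a basic helix-loop-helix factor of the first mesoderm to leave the streak, read 4.89 and 5.37 at day 2, then 10.12 and 9.85 at day 4, a rise of 4.86 (SE 0.316, adjusted p = 7.7e-09, 29.1-fold). Its neighbour Mesp2, which acts in somite formation, rose by 1.13 (adjusted p = 0.00113) from 5.88 and 5.90 to 7.21 and 6.82. Both were clear of their day 2 values on each day 4 array, with a larger step for Mesp1. At day 5 the Mesp1 mean was 8.08.

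Of 18 genes of nascent and paraxial mesoderm, 11 rose and 1 fell (median change 0.97), and 9 rose with replicate 1 of day 4 alone. Aplnr, the apelin receptor of migrating mesoderm, had the largest rise of any gene called and separated, from 3.92 and 3.74 to 11.41 and 11.54 (7.64, SE 0.408, adjusted p = 1.1e-09), a 200.0-fold rise. Over all alternatives of the processing its rise was 5.22 to 7.73. Rspo3, a secreted amplifier of Wnt signals, went from 4.30 and 4.47 to 8.50 and 8.40 (4.06, SE 0.338, adjusted p = 1.2e-07). Pdgfra, a growth factor receptor of early mesoderm, went from 6.16 and 5.87 to 9.16 and 9.50 (3.31, adjusted p = 1.7e-05). The day 4 arrays of these 3 genes were nearly level with each other. Dll3 (1.93), Foxc1 (1.35) and Tbx6 (1.01), which act in paraxial mesoderm, rose too. Foxc2, the paralogue of Foxc1, rose by 0.93 (adjusted p = 0.0319) but was called only when replicate 1 of day 4 was the array left out (adjusted p 0.00996 to 0.359 over the 4 arrays). Msgn1 (0.11), Hes7 (0.05), Lfng (0.47), Dll1 (0.30) and Meox1 (-0.15), genes of presomitic mesoderm and of somites, did not pass. Tcf15, a factor of somites that is also read in epiblast, fell by 2.46 (adjusted p = 1.3e-08), from 8.35 and 8.67 to 6.31 and 5.79.

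Of 18 regulators of heart and lateral mesoderm, 9 rose (median change 0.81), and 6 rose with replicate 1 of day 4 alone. Kdr, the Vegf receptor that marks lateral and blood-forming mesoderm, went from 6.66 and 6.54 to 9.15 and 9.52 (2.73, SE 0.417, adjusted p = 9.3e-05). Isl1, a factor of the second heart field, went from 4.77 and 4.60 to 6.94 and 7.38 (2.47, adjusted p = 3.5e-04). Tbx20, a T-box factor of the heart field, went from 3.35 and 3.54 to 5.97 and 7.51. Its day 4 arrays lay over 1 log2 unit apart, and the rise of 3.30 (adjusted p = 3.4e-04) was 2.52 with replicate 1 alone (adjusted p = 0.0127). Gata4 (1.68, adjusted p = 5.0e-04) and Gata6 (2.13, adjusted p = 0.00143), zinc finger factors shared by heart and endoderm, rose on both arrays. The later cardiac factors Nkx2-5 (-0.20), Tbx5 (-0.45), Mef2c (-0.11) and Myocd (-0.19) did not pass.

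Of 20 contractile genes 2 rose and 3 fell (15.5% and 17.0% of all genes did), with a median change of -0.06. The rises were Myl7, an atrial myosin light chain, from 4.75 and 4.67 to 7.61 and 7.38 (2.78, adjusted p = 2.1e-05), and Tnnc1, cardiac troponin C, from 5.02 and 4.84 to 6.48 and 6.75 (1.69, adjusted p = 0.0051). Both day 4 arrays of either gene stood above day 2. Myh6, an atrial myosin heavy chain, fell by 1.56 (adjusted p = 7.9e-07) from 5.71 and 5.61 to 4.08 and 4.11, low levels on this scale. Tnnt2 (-0.25), Actc1 (0.20), Myh7 (-0.09) and Myl2 (-0.27) did not pass.

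Definitive endoderm genes rose as a group. Of 21 tested, 14 rose, with a median change of 2.56, and 13 rose with replicate 1 of day 4 alone (median 2.52). Sox17, the Sry-type factor of endoderm and the target of the other arm's shRNA, read 6.01 and 6.17 at day 2, then 10.30 and 10.66 at day 4, a rise of 4.39 (SE 0.801, adjusted p = 4.7e-04, 21.0-fold). Cer1, a secreted inhibitor of Nodal, Wnt and Bmp, read 3.80 and 3.88 and then 9.25 and 8.85, a rise of 5.21 (SE 0.597, adjusted p = 5.1e-06). Hhex, a homeobox factor of anterior endoderm, read 5.86 and 6.32 and then 7.88 and 8.34, and rose by less (4.07-fold, adjusted p = 0.00236, and 1.79 with replicate 1 alone, adjusted p = 0.0346). All 3 genes were separated between the days. Their day 5 means were 10.4 for Sox17, 7.55 for Cer1 and 8.12 for Hhex, so that Cer1 was lower at day 5 than on either day 4 array and Sox17 and Hhex lay within the range of theirs.

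Other members of the endoderm list rose too. Cxcr4, the chemokine receptor used to sort definitive endoderm and also carried by mesoderm, read 4.67 and 4.52 and then 9.34 and 9.52, a 28.5-fold rise (adjusted p = 4.0e-05). The keratins of simple epithelia, Krt8 (3.44), Krt18 (2.56) and Krt19 (3.23), rose together, Krt8 from 8.29 and 8.47 to 11.71 and 11.93. Foxa1, the paralogue of Foxa2, rose from 4.87 and 4.97 to 7.69 and 8.58 (3.22, adjusted p = 2.9e-04), and Prdm1, a repressor of endoderm and germ cells, from 5.41 and 5.55 to 8.02 and 8.29 (2.67, adjusted p = 6.4e-05). These gains stood on both day 4 arrays. Epcam, an epithelial adhesion protein shared with stem cells, did not pass (-0.56, adjusted p = 0.227), nor did Foxa3 (0.80, adjusted p = 0.0516), Trh (0.35) and Pyy (-0.18).

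Sox17, Foxa2, Hhex and Cer1 are also made by visceral endoderm, the layer that surrounds the epiblast. Of 20 markers of that layer 2 rose (15.5% of all genes did), Amot (2.70) and Cited1 (0.89), and the median change of the list was 0.01. Cited1 was not called without replicate 2 of day 2 or without replicate 2 of day 4 (0.82 with replicate 1 alone, adjusted p = 0.0957). The median level of the visceral list was 6.74 and 6.75 at day 2, then 7.21 and 7.08 at day 4. Afp, alpha-fetoprotein, read 4.74 and 4.73 and then 4.66 and 4.54, near the bottom of the scale. Ttr, transthyretin, read 7.16 and 7.33 and then 8.36 and 8.62, and its difference of 1.25 did not pass (adjusted p = 0.475). The markers Cubn and Lrp2, endocytic receptors of this layer, were at 9.83 and 9.95 and at 9.67 and 9.78 at day 2, and neither passed (-0.61 and -1.50). In bulk RNA fewer cells of a type and less RNA per cell cannot be told apart.

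Of 15 basement membrane and parietal endoderm genes 5 rose and 2 fell (15.5% and 17.0% of all genes did), with a median change of 0.43. Without replicate 1 of day 2, without replicate 2 of day 2 or without replicate 1 of day 4, 3 of them rose. The falls were Lama5 (-0.54), a laminin chain, and Hspg2 (-0.48), perlecan. Neither was called without replicate 2 of day 2 (adjusted p 0.123 for Lama5 and 0.267 for Hspg2), and Hspg2 was not without replicate 2 of day 4 (adjusted p = 0.489). Pth1r, a hormone receptor of parietal endoderm, rose by 1.20 (adjusted p = 6.5e-04) from 6.22 and 6.32 to 7.42 and 7.51, and Serpinh1, a collagen chaperone, rose by 0.88 (adjusted p = 0.00308). Lama1 (0.30), Lamb1 (0.39) and Lamc1 (0.15), the chains of the first embryonic laminin, did not pass, and Sparc, a secreted matrix protein, read 11.15 and 11.20 and then 11.76 and 11.78 (adjusted p = 0.0525).

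Mesenchymal cadherins rose, and the epithelial cadherin did not pass. Cdh2 (N-cadherin), the adhesion protein of mesenchyme, read 5.44 and 6.28 at day 2, then 10.78 and 10.91 at day 4, a rise of 4.99 (SE 0.481, adjusted p = 7.1e-07, 31.7-fold). Cdh11, a mesenchymal cadherin, read 4.06 and 4.30 and then 10.01 and 10.28, a rise of 5.96 (SE 0.292, adjusted p = 3.2e-10, and 4.00 to 6.10 over all alternatives). Cdh1 (E-cadherin), the adhesion protein of epiblast and epithelia, read 11.29 and 11.47 and then 11.44 and 11.51, and did not pass (0.10, SE 0.282, adjusted p = 0.826). Its day 4 and day 2 arrays overlapped, and the day 5 mean was 11.5. Snai1, the repressor that lowers Cdh1 in the streak, read 5.13 and 5.12 and then 7.44 and 7.82, a rise of 2.51 (SE 0.325, adjusted p = 1.9e-05).

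Of 19 mesenchymal and epithelial-to-mesenchymal transition genes 10 rose, with a median change of 0.58, and 7 rose with replicate 1 of day 4 alone. Fn1, fibronectin, rose by 2.36 (adjusted p = 1.3e-05) from 9.59 and 9.96 to 12.04 and 12.24, and Vim, vimentin, by 1.55 (adjusted p = 9.2e-07) from 9.86 and 9.66 to 11.34 and 11.28. Twist1, a mesodermal repressor, rose by 1.45 (adjusted p = 0.00264), and Rhou, a small GTPase, by 1.75 (adjusted p = 5.2e-05). Snai2 (0.10), Zeb2 (0.28), Twist2 (0.23) and Prrx1 (-0.13), further regulators of the mesenchymal state, did not pass. Of 17 epithelial genes 3 rose, and 1 rose with replicate 1 of day 4 alone or without replicate 1 of day 2. The largest was Dsp, desmoplakin of desmosomes, from 6.60 and 7.12 to 10.53 and 11.04 (3.92, adjusted p = 2.9e-07). The median change of the epithelial list was 0.15, and the share of all genes that rose was 15.5%.

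Receptors and cues that guide moving cells were among the rises, 11 of 21 tested, with 1 fall and a median change of 0.45. The fall was Cxcl12 (-1.001), the ligand of Cxcr4, which was not called without replicate 1 of day 2 (adjusted p = 0.0604) or without replicate 1 of day 4 (adjusted p = 0.0521). Sema6d, a transmembrane semaphorin, rose by 3.14 (adjusted p = 3.6e-04, and 1.25 to 3.22 over all alternatives) from 5.45 and 5.56 to 8.57 and 8.73. Ackr3, the scavenging receptor for Cxcl12, rose by 2.58 (adjusted p = 0.00315), and Robo1, a Slit receptor, by 2.15 (adjusted p = 0.0013). The ligand Apln rose by 1.32 (adjusted p = 1.5e-04) from 6.86 and 6.77 to 8.05 and 8.22, beside the larger rise of its receptor Aplnr. Flrt3, an adhesion protein of the streak and anterior endoderm, rose by 1.64 (adjusted p = 5.7e-04), and Ntn1, netrin, by 1.89 (adjusted p = 4.6e-04).

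Of the 3 core pluripotency factors Sox2 fell, and Pou5f1 and Nanog did not pass. Pou5f1 (Oct4), the core factor, read 12.24 and 12.39 at day 2, then 11.46 and 11.30 at day 4, and Nanog, its partner, read 9.72 and 9.64 and then 9.26 and 9.10. In both genes both day 4 arrays lay below day 2. Neither passed (Pou5f1 -0.94, SE 0.537, adjusted p = 0.194 and Nanog -0.50, SE 0.618, adjusted p = 0.566). With the 14 control arrays fitted alone Pou5f1 passed (adjusted p = 0.0144, over all alternatives 9.5e-05 to 0.437), and Nanog passed with the 4 arrays alone (adjusted p = 0.0195, over all alternatives 0.0195 to 0.996). At day 5 the means were 9.09 for Pou5f1 and 6.40 for Nanog. Zfp42 (Rex1), a marker of the naive state, read 9.36 and 9.35 and then 6.75 and 7.59, and fell by 2.18 (SE 0.531, adjusted p = 0.00443). Its day 0 mean was 12.5.

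Of 21 naive pluripotency genes 12 fell (17.0% of all genes did) and 1 rose, with a median change of -1.53, and 13 fell with replicate 1 of day 4 alone. Dppa2, a chromatin factor of stem cells, fell furthest of all genes on the array that were called and separated, from 10.59 and 10.45 to 5.75 and 6.33 (-4.48, SE 0.308, adjusted p = 1.2e-08, 22.3-fold). Its partner Dppa4 went from 10.31 and 10.06 to 6.83 and 6.81 (-3.36, SE 0.291, adjusted p = 1.9e-07). Nr0b1 (Dax1), a repressor bound to Pou5f1, went from 7.15 and 7.19 to 4.18 and 4.04 (-3.06, adjusted p = 4.5e-08). Morc1, a silencer of transposons, went from 7.53 and 7.37 to 3.94 and 5.30 (-2.83, adjusted p = 2.0e-04, and -3.51 with replicate 1 alone). Klf4 (0.18), Klf5 (0.07) and Esrrb (-0.36) did not pass. At day 0 the mean was higher for Morc1 (10.6) and for Klf4 (10.8) than at day 2. Tbx3, the 1 rise, is also a factor of endoderm and heart, and it was not called with replicate 1 alone (1.18, adjusted p = 0.101).

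Of 10 pluripotency genes shared by the naive and primed states 6 fell and 1 rose, with a median change of -0.85. The rise was Sall4 (0.52), a zinc finger factor, which was not called without replicate 1 of day 2 (adjusted p = 0.304) or without replicate 1 of day 4 (adjusted p = 0.287). Sox2, the partner of Pou5f1 that stays on in neural tissue, went from 11.07 and 11.02 to 9.05 and 9.47 (-1.78, adjusted p = 0.0014), and it was called with any 1 of the 4 arrays left out (adjusted p 0.00608 to 0.0155). Utf1, a chromatin factor, went from 11.02 and 11.09 to 8.73 and 8.71 (-2.33, adjusted p = 5.8e-08), and L1td1, an RNA-binding protein, from 11.71 and 11.79 to 9.71 and 9.19 (-2.30, adjusted p = 0.00313). These 3 were lower on both day 4 arrays by over 1 log2 unit. Tdgf1 (Cripto), the Nodal co-receptor, did not pass (0.17, adjusted p = 0.777) and stood near 12 on all 4 arrays.

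Genes of the primed epiblast, the state that precedes the streak, moved both ways. Fgf5, its standard marker, read 9.31 and 9.32 at day 2, then 10.36 and 9.92 at day 4, with a day 0 mean of 3.65, and did not pass (0.83, SE 0.363, adjusted p = 0.0903). It passed with the 14 control arrays fitted alone (adjusted p = 6.7e-04, over all alternatives 6.7e-04 to 0.307). Of the 14 genes of the list 4 rose and 4 fell (median -0.24), and without replicate 1 of day 2 or with replicate 1 of day 4 alone 2 rose. Over all genes tested 15.5% rose and 17.0% fell. Pou3f1 (Oct6) went from 9.55 and 9.85 to 7.06 and 7.09 (-2.62, adjusted p = 4.5e-06), and Sall2 from 8.50 and 8.68 to 6.43 and 7.12 (-1.81, adjusted p = 1.7e-05). Both are transcription factors of epiblast and neural tissue. Otx2, a homeobox factor of the same state, did not pass (-0.47, adjusted p = 0.143). Tead2, a partner of the Hippo pathway's Yap, rose by 1.003 (adjusted p = 8.0e-05).

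Of 8 enzymes that set or remove DNA methylation, several of them high in epiblast, 4 fell and 4 did not pass, with a median change of -0.57, and 4 fell with replicate 1 alone. Dnmt3l, the cofactor of the de novo methyltransferases, went from 10.51 and 10.59 to 7.20 and 7.34 (-3.28, SE 0.260, adjusted p = 6.1e-08). Dnmt3a, a de novo enzyme, went from 10.73 and 10.78 to 8.31 and 8.28 (-2.46, adjusted p = 1.5e-09), although 1 of its 5 probe sets had the opposite sign (range -3.08 to 0.53). Tet1, which oxidises methylated cytosine, fell by 1.85 (adjusted p = 3.1e-06), and Uhrf1, which brings the maintenance enzyme to DNA, by 0.77 (adjusted p = 4.1e-04). Dnmt3b, the other de novo enzyme, read 12.64 and 12.73 and then 12.41 and 12.23 and did not pass (adjusted p = 0.401).

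**Figure D3:**
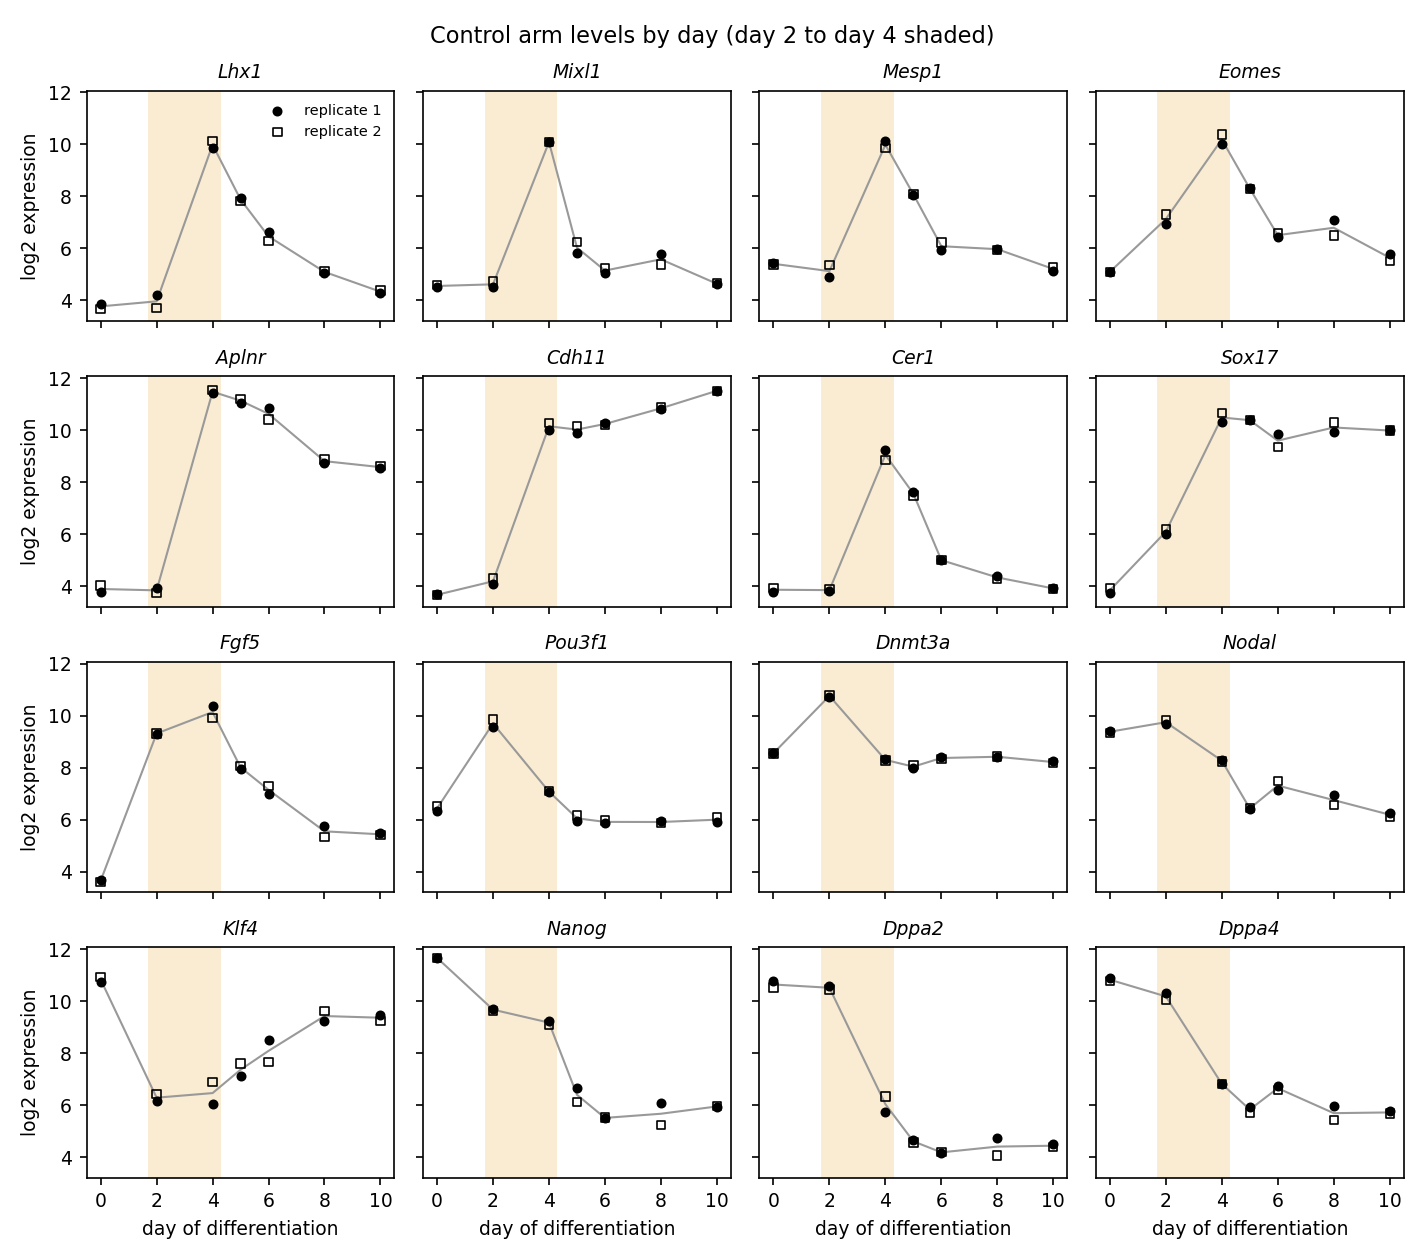
Log2 level (y axis) of 16 genes on the 2 control arrays of each day from day 0 to day 10 (x axis, days), with a line through the means and days 2 to 4 shaded. Mixl1 stands at 10.08 and 10.10 at day 4 and at a mean of 6.03 at day 5, and Dppa2 falls from 10.59 and 10.45 at day 2 to 5.75 and 6.33 at day 4.

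Nodal and both Lefty genes fell, while most receptors and effectors of the pathway rose. Nodal, the ligand that induces the streak, read 9.67 and 9.82 at day 2, then 8.30 and 8.24 at day 4, and fell by 1.48 (SE 0.273, adjusted p = 5.2e-04). Lefty1, a secreted inhibitor and target of Nodal, read 11.14 and 11.19 and then 8.33 and 8.20, and fell by 2.90 (SE 0.365, adjusted p = 1.3e-05). Lefty2, its paralogue, read 6.90 and 7.09 and then 6.04 and 5.40. For each of the 3 genes both day 4 arrays lay below both day 2 arrays. Lefty2 fell by 1.27 (SE 0.399, adjusted p = 0.0211), but it did not pass with replicate 1 of day 4 alone (-0.95, adjusted p = 0.199), without replicate 1 of day 2 (-1.37, adjusted p = 0.0629) or without replicate 2 of day 2 (-1.18, adjusted p = 0.106). Probes of the 2 Lefty genes, which are close paralogues, may share sequence, which was not tested.

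Of 6 ligand and maturation genes 1 rose and 3 fell (15.5% and 17.0% of all genes did). The smallest fall was that of Pcsk6 (-0.42), which was -0.24 to -0.60 with 1 of the 4 arrays left out. With the 4 arrays fitted alone in limma it did not pass (adjusted p = 0.141). Gdf3, a Nodal-like ligand of stem cells, went from 9.08 and 8.91 to 6.07 and 5.79 (-3.06, adjusted p = 4.2e-08), while Furin, a convertase that cleaves the Nodal precursor, rose by 1.03 (adjusted p = 0.00144). Of 9 receptors and effectors 7 rose, with a median change of 0.70, and 5 rose with replicate 1 alone. Cfc1 (Cryptic), a co-receptor of the Tdgf1 family, rose most, from 6.27 and 6.57 to 9.07 and 8.36 (2.30, adjusted p = 6.2e-05). Smad3 (0.70, adjusted p = 0.00256) and Smad4 (0.81, adjusted p = 8.2e-05), which carry the signal to the nucleus, and Acvr2a (0.77, adjusted p = 0.00164), a receptor, rose by under 1 log2 unit. Smad2 did not pass (0.18, adjusted p = 0.392). Of 7 targets and inhibitors 2 rose, Cer1 and Fst, and 4 fell. Fst (1.63, adjusted p = 0.0187) was not called when any 1 of the 4 arrays was left out (adjusted p 0.0509 to 0.0938). Skil (SnoN), a repressor of Smads that the pathway induces, fell by 0.90 (adjusted p = 5.9e-05), and Pmepa1, a target of Tgf-beta, did not pass (-0.23).

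Wnt signalling genes rose more often than they fell. Of 17 ligands and receptors 9 rose and 1 fell (median change 0.67), 7 rose with replicate 1 alone, and 2 fell without replicate 1 of day 4. Ror2, a receptor for Wnt5a, rose by 1.65 (adjusted p = 6.8e-06) from 5.25 and 5.56 to 6.99 and 7.12, and Fzd8 by 1.28 (adjusted p = 5.7e-04) from 6.39 and 6.70 to 7.71 and 7.93. Lgr5, a receptor for R-spondins, rose by 1.42 (adjusted p = 5.5e-04), while Lgr4, a receptor for the same ligands, fell by 1.45 (adjusted p = 1.1e-07) from 9.79 and 10.00 to 8.33 and 8.56. The 2 R-spondin receptors thus moved in opposite directions. Wnt5a rose from 3.90 and 4.01 to 5.68 and 6.84 (2.30, adjusted p = 0.00531), which with replicate 1 alone was 1.72 and did not pass (adjusted p = 0.0941). Of 14 targets and inhibitors 6 rose and 2 fell (median 0.29), beside 15.5% and 17.0% of all genes.

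Among those Wnt targets, Axin2, the general feedback target of the pathway, rose by 1.54 (adjusted p = 1.2e-04) from 6.43 and 6.62 to 7.83 and 8.29. Of the secreted inhibitors of Wnt, Frzb went from 4.40 and 4.39 to 8.69 and 8.82 (4.36, adjusted p = 4.2e-07), and Dkk1, an inhibitor made by anterior mesendoderm, from 5.40 and 5.46 to 7.95 and 8.25 (2.67, adjusted p = 2.0e-04). Sfrp1 rose by 1.32 (adjusted p = 0.00291), Sfrp2 fell by 1.27 (adjusted p = 9.2e-04) and Sfrp5 did not pass (-0.23), although all 3 bind Wnt ligands. Lef1, a nuclear partner of beta-catenin and a later target, did not pass (0.30, adjusted p = 0.323), and Ccnd1, cyclin D1, fell by 0.94 (adjusted p = 7.9e-04).

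Several Bmp ligands and effectors rose. Bmp4, the ligand of posterior mesoderm, read 6.11 and 6.43 at day 2, then 7.88 and 8.44 at day 4 (1.89, adjusted p = 7.3e-05). Bmp2 went from 4.12 and 4.34 to 6.71 and 7.94 (3.10, adjusted p = 0.00111), and its rise was 2.48 with replicate 1 alone (adjusted p = 0.0284). Bmp5 went from 3.94 and 4.00 to 5.60 and 6.75 (2.20, adjusted p = 5.0e-04). All 3 ligands stood higher on replicate 2 of day 4 than on replicate 1, and both arrays stood above day 2. Of 14 ligands, receptors and antagonists 7 rose (median change 0.43), and 7 also rose with replicate 1 alone. Chrd (chordin), an antagonist made by the node, rose by 1.12 (adjusted p = 2.6e-06), and Nog (noggin) did not pass (0.26).

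Downstream, 8 of 11 Bmp effectors and targets rose and 2 fell, with a median change of 0.78, and 7 rose with replicate 1 alone. Smad1, the transducer of Bmp signals, went from 7.54 and 7.60 to 10.00 and 10.12 (2.49, adjusted p = 9.5e-07), and Smad6, an inhibitor in the same pathway, from 4.43 and 4.60 to 6.89 and 7.51 (2.68, adjusted p = 7.9e-05). The homeobox targets Msx1 (2.28, adjusted p = 1.8e-04) and Msx2 (2.57, adjusted p = 3.6e-04) rose as far. Id3 rose by 1.36 (adjusted p = 3.0e-06) and Id1 by 0.71 (adjusted p = 5.9e-04), while Id2 of the same family of inhibitors fell by 1.19 (adjusted p = 8.0e-04) from 9.60 and 9.56 to 8.20 and 8.57. Smad7, an inhibitor of Bmp and Nodal signals, fell as well, from 8.62 and 8.81 to 7.35 and 8.07 (-1.01, adjusted p = 0.00345), but it was not called without replicate 1 of day 4 (-0.65, adjusted p = 0.0597).

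Fgf ligands changed in both directions. Fgf4, the ligand of stem cells, fell by 0.99 (adjusted p = 8.2e-05) from 7.87 and 7.79 to 6.88 and 6.81, and Fgf15 fell by 1.75 (adjusted p = 4.9e-05) from 8.53 and 8.47 to 6.79 and 6.70. Fgf10, a ligand of mesoderm, rose by 1.51 (adjusted p = 6.3e-06) from 4.61 and 4.84 to 6.14 and 6.33, beside the rise of Fgf8. Of the 12 ligands and receptors 3 rose and 2 fell (15.5% and 17.0% of all genes did). The receptors Fgfr1 (0.35), Fgfr2 (-0.10), Fgfr3 (-0.18) and Fgfr4 (-0.41) did not pass. Of 11 feedback genes and targets 5 rose and 1 fell, but 1 rose with replicate 1 of day 4 alone, 1 without replicate 1 of day 2, and 3 when either of the other arrays was left out. Dusp4, a phosphatase induced by the pathway, rose by 2.54 (adjusted p = 6.3e-05) from 6.66 and 7.04 to 9.30 and 9.47. Etv5, a factor induced by Fgf, fell by 1.20 (adjusted p = 1.7e-04). Dusp6 (0.01), Spry2 (-0.02) and Spry4 (-0.42) did not pass.

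Of 18 Notch pathway genes 7 rose and 2 fell (median change 0.45), and 4 rose without replicate 1 of day 2. The falls were Jag2 and Mfng, and neither was called without replicate 1 of day 2, without replicate 2 of day 2 or without replicate 1 of day 4. Over all genes tested 15.5% rose and 17.0% fell. Nrarp, a feedback inhibitor, rose by 1.75 (adjusted p = 0.00101) from 6.07 and 5.99 to 7.49 and 8.06. Jag1, a ligand, rose by 1.71 (adjusted p = 0.00339) and Hey1, a target, by 1.32 (adjusted p = 0.00394). Hes5 (-0.46), Hey2 (0.19) and Dll4 (-0.08) did not pass.

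Markers of other tissues were called in either direction for 2 of 22, 4 of 12 and 3 of 12 genes in the lists of blood and vessels, neural tissue and fibroblasts, beside 32.5% of all genes. Of 22 blood and endothelial genes 1 rose, Kdr, and 1 fell, Pecam1, and 20 did not pass. Pecam1 was not called without replicate 1 of day 2, replicate 2 of day 2 or replicate 2 of day 4 (-0.92, -1.12 and -0.90), and 2 genes fell without replicate 1 of day 4. Embryonic globin Hbb-bh1 read 5.15 and 4.76 and then 5.89 and 4.74, and Tal1 (-0.40), Gata1 (0.18), Cdh5 (-0.05) and Etv2 (-0.24) did not pass. Of 12 neural genes 1 rose, 3 fell and 8 did not pass. With an array left out, 1 fell without either day 2 array and 2 without either day 4 array, and 2 rose without replicate 1 of day 2 and 0 without replicate 2 of day 4. Pax6, a homeobox factor of neural tissue, fell by 0.97 (adjusted p = 0.00366) from 5.14 and 5.34 to 4.38 and 4.16 and was called with each of the 4 arrays left out. Sox1, the first neural marker, read 3.84 and 4.41 and then 3.44 and 3.54 and did not pass. Of 12 fibroblast genes 3 fell and 9 did not pass. Col1a1, a defining member, read 4.50 and 4.39 and then 4.49 and 4.60.

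Of 10 primordial germ cell genes 4 rose and 2 fell (15.5% and 17.0% of all genes did). Prdm1, Ifitm1 (1.75, adjusted p = 6.6e-07), Kit (1.64, adjusted p = 3.0e-04) and Tfap2c, which also mark streak, mesoderm or surface ectoderm, rose. Tfap2c went from 4.63 and 4.85 to 6.37 and 7.62 (2.26), or 1.63 with replicate 1 alone (adjusted p = 0.0286). Ddx4 (Vasa), an RNA helicase of germ cells, went from 7.11 and 7.13 to 3.87 and 4.54 (-2.92, adjusted p = 7.0e-08), and Dazl, an RNA-binding protein of germ cells, fell by 1.29 (adjusted p = 1.3e-04). Prdm14 (-0.36) and Dppa3 (-0.95) did not pass. Of 10 surface ectoderm genes 3 rose (15.5% of all genes did), led by Msx2 and by Grhl3 (1.47, adjusted p = 2.4e-04). Krt5 (0.10) and Trp63 (-0.30) did not pass. Of 8 trophoblast genes 2 rose and 1, Ascl2, fell (15.5% and 17.0% of all genes did), and Cdx2 and Hand1 (0.24) did not pass. The rises numbered 1 without replicate 2 of day 2 or of day 4 and 3 without replicate 1 of day 4, and Ascl2 (-0.74) was not called without replicate 1 of day 2 (adjusted p = 0.0542) or without replicate 2 of day 4 (adjusted p = 0.129).

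Of 11 posterior and Hox genes 3 rose and 1 fell (15.5% and 17.0% of all genes did). Cyp26a1, the enzyme that breaks down retinoic acid in the streak, stood at 7.15 and 7.003 at day 2, then 11.80 and 11.73 at day 4, a 25.7-fold rise (SE 0.434, adjusted p = 4.2e-07). Hoxb1, a Hox gene of the streak, did not pass (0.64, adjusted p = 0.280), and Hoxb2 (0.33), Hoxb4 (-0.23), Hoxb6 (-0.06) and Hoxb9 (-0.28) did not either. The fall was Hoxc6 (-0.33), which was not called without replicate 1 of day 2, without replicate 2 of day 2 or without replicate 2 of day 4.

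Of 22 proliferation genes 3 fell (17.0% of all genes did) and 19 did not pass, with a median change of -0.32 (-0.11 for replicate 1 and -0.42 for replicate 2). The falls numbered 1 without replicate 1 of day 2 or without replicate 2 of day 2, 2 without replicate 2 of day 4 and 6 without replicate 1 of day 4. Ccne1, cyclin E1, fell by 1.17 (adjusted p = 1.5e-05) from 10.39 and 10.46 to 9.16 and 9.35. Mki67 (-0.03), Ccnb2 (0.06) and Pcna (-0.12) did not pass. Of 18 glycolysis and hypoxia genes 2 rose and 5 fell (15.5% and 17.0% of all genes), but 1 rose without replicate 2 of day 2 or of day 4, and 1, 0, 3 and 0 fell without replicate 1 of day 2, replicate 2 of day 2, replicate 1 of day 4 and replicate 2 of day 4 in that order. Slc2a3, a glucose transporter, rose by 1.06 (adjusted p = 3.8e-07) from 11.84 and 11.97 to 12.87 and 13.06. Of 18 stress and p53 target genes 5 fell, and 3, 1, 3 and 2 fell with those same arrays left out. Gadd45a, a damage-induced gene, fell by 1.39 (adjusted p = 0.00213) from 7.73 and 7.62 to 6.13 and 6.43, and Cdkn1a (0.12) and Ddit3 (-0.11) did not pass.

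**Figure D4:**
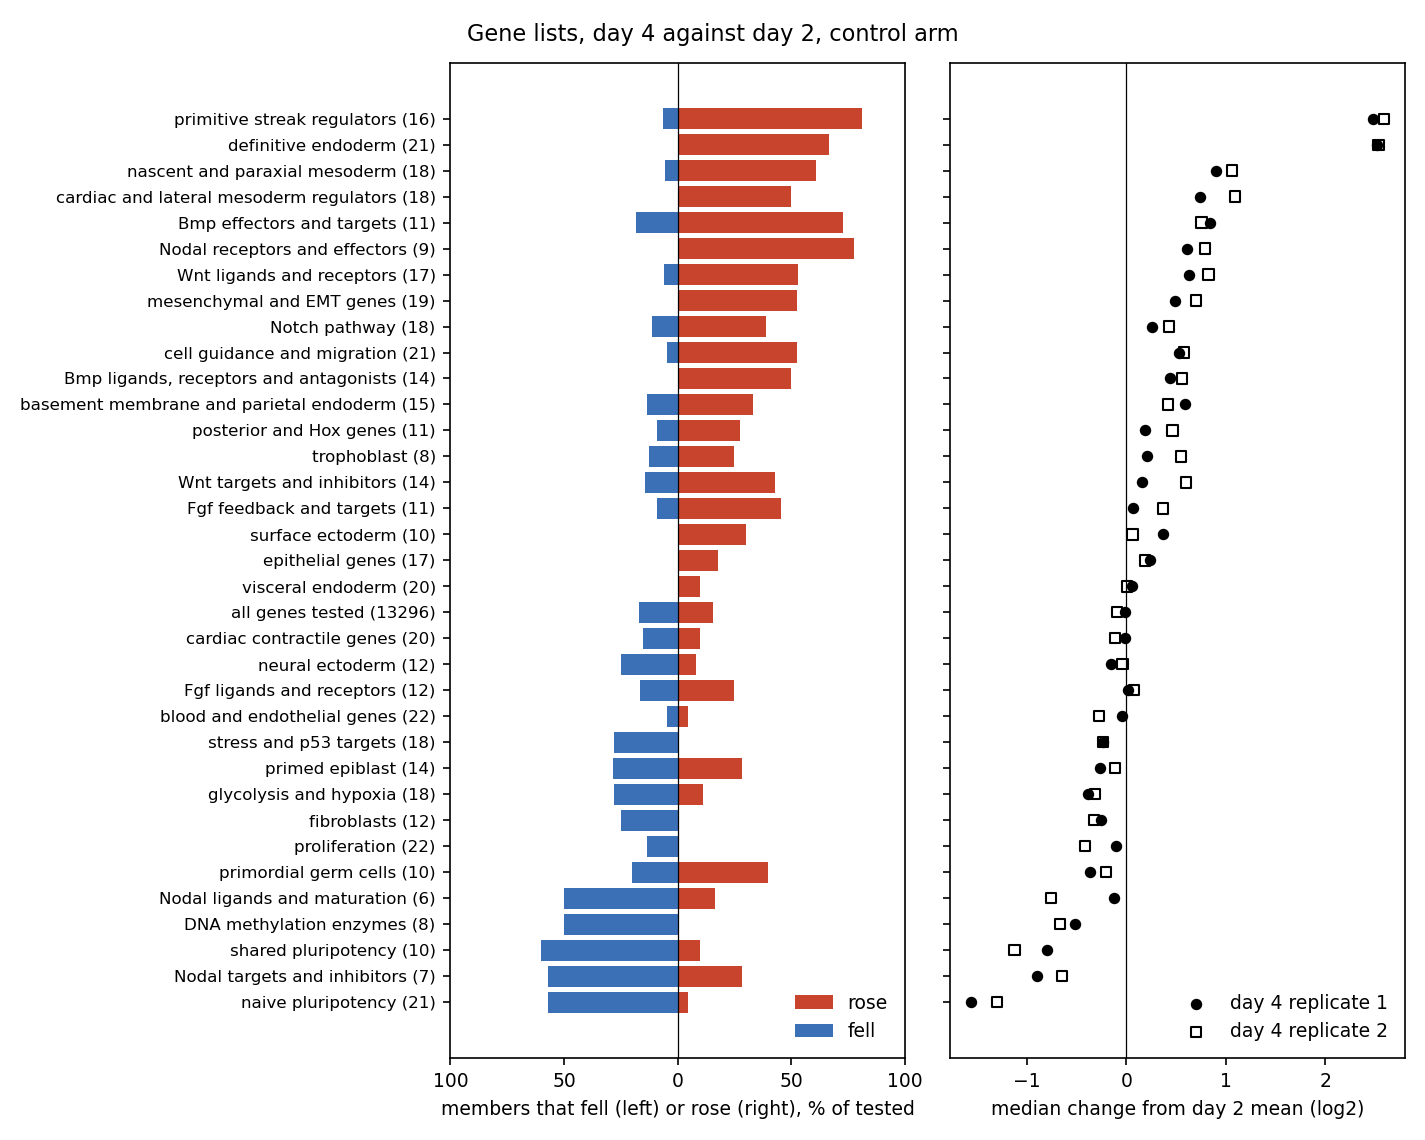
Left, share of tested members of each gene list (number tested in parentheses) that fell (leftward bars) or rose (rightward bars), in percent. Right, median change of the list from the day 2 mean (log2) on replicate 1 (filled circles) and replicate 2 (open squares) of day 4, with all genes tested as a line of their own. On replicate 1 the median is highest for definitive endoderm (2.52) and the primitive streak (2.48) and lowest for naive pluripotency (-1.56).

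Among the 12 largest rises not yet described were Nrp1, a co-receptor for semaphorins and Vegf, with a 29.6-fold rise (adjusted p = 4.8e-05), and Hmga2, a chromatin protein of early embryos, with a 23.6-fold rise (SE 0.255, adjusted p = 1.5e-09). Several of the 12 largest falls are known as germ line genes. Mael, a factor of transposon silencing in germ cells, read 7.48 and 7.09 at day 2, then 3.26 and 3.50 at day 4, a 15.0-fold fall (adjusted p = 3.2e-10). Rpl39l, a ribosomal protein variant of testis, read 8.63 and 8.49 and then 4.59 and 5.27, a 12.4-fold fall (adjusted p = 1.5e-09). Tex19.1, a germ cell and placenta gene, read 8.69 and 8.65 and then 5.39 and 5.47, and Mageb16, of a testis gene family, read 8.65 and 8.45 and then 4.90 and 5.87. All 4 were lower on each day 4 array by over 2 log2 units. Outside the germ line, Cbr3, a carbonyl reductase, fell 9.90-fold (adjusted p = 2.2e-08), and Zfp936, Mcf2, Nphs1 and the noncoding Platr10 fell by 3.75, 3.20, 3.18 and 3.10.

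Between the 2 day 4 arrays 114 genes stood over 1 log2 unit apart, 43 higher on replicate 1 and 71 higher on replicate 2. Rpl27a, a ribosomal protein gene, had the largest gap of the first kind and read 10.01 and 9.66 at day 2, 10.44 on replicate 1 and 7.08 on replicate 2 of day 4, with a day 5 mean of 7.12. Cryl1, lambda-crystallin, had the largest of the second kind and read 8.33 and 6.11, then 7.51 and 10.51. Replicate 1 of Rpl27a was thus near day 2 and replicate 2 near day 5. Of the 114 genes, replicate 1 was nearer the day 2 mean than replicate 2 was in 98 (86.0%, beside 65.5% of all genes). Replicate 2 was nearer the day 5 mean in 106 (93.0%, beside 65.4%). The bioB controls of the control day 5 arrays read 6.96 and 6.90, near replicate 2 of day 4 (6.99) and below day 2 (9.32 and 9.23). Nearness to a day and likeness in spike-in level thus cannot be told apart here.

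These genes stood apart in the other arm as well, whose day 4 arrays were split in spike-in level like the control pair. There the bioB controls read 9.67 on replicate 1 and 7.11 on replicate 2, and the 18S probe sets 8.60 and 7.06. Between the 2 day 4 arrays of the Sox17 shRNA arm the gap had the same sign in 110 of the 114 genes (96.5%, beside 76.1% of all genes), and it also exceeded 1 log2 unit in 72 (63.2%, beside 4.29%). Rpl27a there read 10.70 on replicate 1 and 6.95 on replicate 2. Of the 114 genes 34 were called with both day 4 arrays, 14 with replicate 1 alone and 85 with replicate 2 alone. Of the 452 list members tested, 12 were among the 114. They were Bmp2, Bmp5, Tbx20, Tbx3, Tfap2c, Wnt5a and Zic2, which rose, Morc1, which fell, and Apom, Hbb-bh1, Lin28a and Runx1, which did not pass. With replicate 1 alone Tbx3 (adjusted p = 0.101), Wnt5a (0.0941 as adjusted p) and Zic2 (0.43, adjusted p = 0.251) were not called, and Zic2 was not called without replicate 1 of day 2 either (0.74, adjusted p = 0.119). The part of the spike-in signal in these gaps was not tested.

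**Figure D5:**
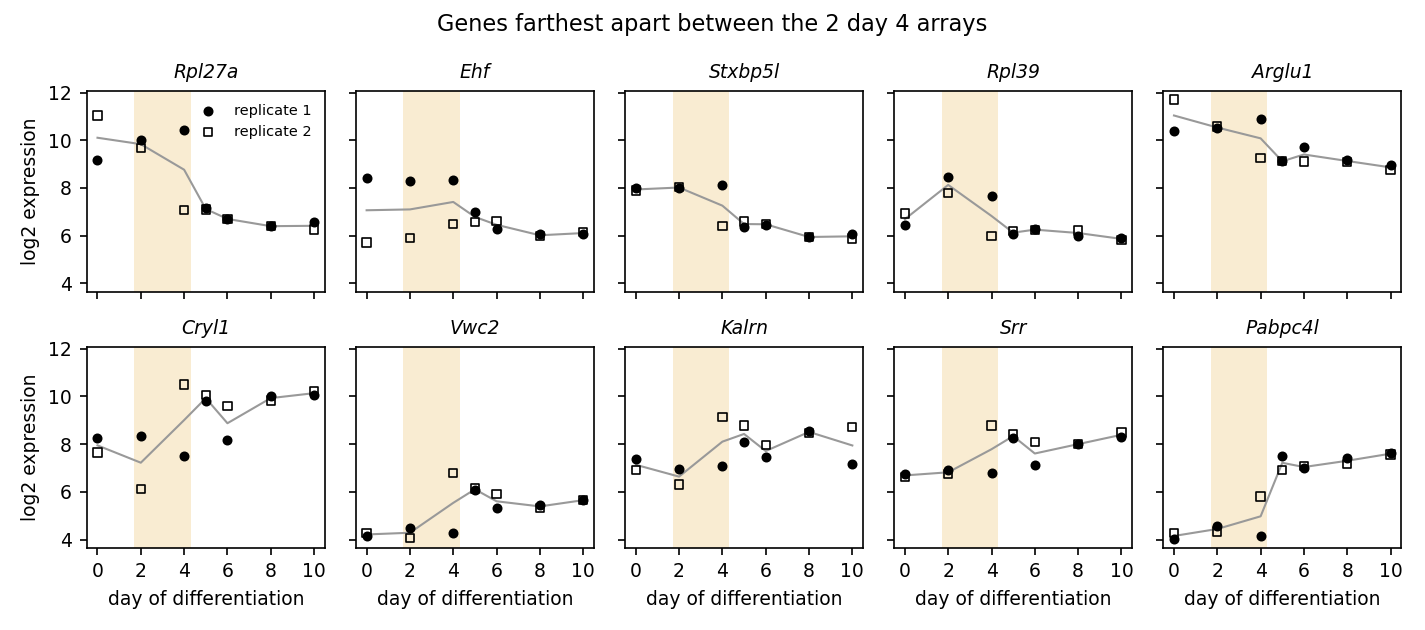
Log2 level (y axis) over the days (x axis) of the 10 genes with the largest gaps between the 2 day 4 control arrays, on replicate 1 (filled circles) and replicate 2 (open squares), with a line through the means. At day 4 Rpl27a reads 10.44 on replicate 1 and 7.08 on replicate 2, and Cryl1 reads 7.51 and 10.51.

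Whether the day 2 to day 4 change differed when Sox17 was targeted was tested as a difference of changes, on 8 arrays none of which enters both arms. The spread was again pooled over all 27 arrays. The 2 day 4 arrays of the Sox17 shRNA arm agreed less (SD of 0.51 between them over genes, r = 0.964) than those of the control arm (0.34, r = 0.983). In the Sox17 shRNA arm Sox17 itself read 5.12 and 4.48 at day 2, then 5.53 on the array labelled replicate 1 of day 4 and 9.39 on that labelled replicate 2, beside 10.30 and 10.66 in the control arm at day 4. Replicate 2 thus stood nearer the control arrays than replicate 1 did. Lhx1 (6.00 and 10.29) and Cer1 (4.26 and 7.58) were split between the same 2 arrays in the same way. The change was higher in the Sox17 shRNA arm for 62 genes (0.466%) and lower for 22 (0.165%), together 0.632%, at an adjusted p below 0.05, with 1194 genes at an unadjusted p below 0.05. Of the 84 genes, 41 fell in the control arm and had a higher change in the other arm, 18 rose in the control arm and had a lower change, and 17 were not called in the control arm. Fitted on those 8 arrays alone, limma called 11 higher and 4 lower. The count of higher genes was 26 and 28 without replicates 1 and 2 of control day 2, 41 without replicate 1 of control day 4, 38 without replicate 1 of Sox17 shRNA day 2 and 133 without replicate 1 of Sox17 shRNA day 4. The count of lower genes was 11 and 10 without replicates 1 and 2 of control day 2, 14 without replicate 1 of control day 4, 13 without replicate 2 of Sox17 shRNA day 2 and 175 without replicate 2 of Sox17 shRNA day 4.

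Of the 20 genes always described 0 were among the 84 by limma, and 8 were at an unadjusted p below 0.05. The 2 day 4 arrays of the Sox17 shRNA arm disagreed, and which of them is the unusual one was not tested. The count changed most when the array labelled replicate 2 was left out. Without it 9 of the 20 were called, and without replicate 1 of the same group 1 was, where the array that is left was taken to vary like the other groups. For Sox17 the difference was -1.73 (adjusted p = 0.749) with both arrays, -3.66 (adjusted p = 0.0154) without replicate 2 and 0.20 (adjusted p = 0.933) without replicate 1. For Lhx1 it was -2.39 (adjusted p = 0.509), -4.53 (adjusted p = 4.7e-06) and -0.24 (adjusted p = 0.819) in that order. Cer1 had -3.20 (adjusted p = 0.114), -4.86 (adjusted p = 8.4e-07) and -1.54 (adjusted p = 0.0318). The calls for Sox17 and Lhx1 thus depended on which day 4 array of that arm was used, and Cer1 was called with either array left out but not with both kept. The difference was -1.89 for Mesp1 (adjusted p = 0.0686, and 0.00108 without replicate 2) and 1.58 for Nodal (adjusted p = 0.0794, and 0.0114 without replicate 2). Replicate 2 of day 4 in the Sox17 shRNA arm had a 3′ to 5′ difference of its actin probe sets of 0.86. It was 0.35 to 0.48 on the control arrays of days 2 and 4. The bioB controls of that replicate read 7.11, beside 9.67 on replicate 1 of its group and 9.29 and 9.37 at day 2 of its arm. Its 18S probe sets read 7.06, beside 8.60, 8.90 and 8.77 in that order. Replicate 2 of control day 4 read lower still in both measures (bioB 6.99, 18S 5.96). The part of these array measures in the differences between arms was not tested.

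Of the 452 list members tested 11 differed between the arms, 9 with a higher and 2 with a lower change in the Sox17 shRNA arm. Among all 13296 genes 84 did (0.632%). The lists were chosen with earlier results of these data known. Myl7, which rose by 2.78 in the control arm, changed by 0.01 in the other arm, from 4.96 and 4.93 to 4.35 and 5.56, a difference of -2.77 (SE 0.517, adjusted p = 0.0145). It was not called when either control day 2 array, replicate 1 of control day 4 or either Sox17 shRNA day 2 array was left out (adjusted p up to 0.0741). Chrd, which rose by 1.12 in the control arm, changed there by 0.04, a difference of -1.08 (adjusted p = 0.00406, and 7.1e-04 to 0.0274 with any 1 of the 8 arrays left out). Fst (follistatin), an inhibitor of activin and Bmp, read 7.87 and 8.04 and then 9.79 and 9.37 in the control arm and 5.36 and 5.497 and then 11.44 and 11.23 in the other, a difference of 4.28 (SE 0.706, adjusted p = 0.00556). The arms of Fst already stood apart at day 2, with the control arm higher. The naive pluripotency genes Klf2 (2.13, adjusted p = 0.0140), Nr5a2 (2.00, adjusted p = 0.0324), Tfcp2l1 (1.89, adjusted p = 0.00995) and Morc1 (3.19, adjusted p = 0.0323) had a higher change in the Sox17 shRNA arm. They too stood apart at day 2, with both control arrays higher. Day 2 of the control and then the Sox17 shRNA arm read 7.53, 7.37, 5.87 and 5.215 for Morc1 and 7.58, 7.76, 6.86 and 6.54 for Klf2. For Nr5a2 these were 6.95, 7.085, 6.03 and 6.50, and for Tfcp2l1 6.35, 6.20, 5.57 and 5.57. Each of these 4 lost its call when replicate 1 of control day 2 was left out, and each but Klf2 also without replicate 1 of control day 4, with adjusted p up to 0.0615 for Tfcp2l1, 0.0797 for Klf2, 0.151 for Nr5a2 and 0.145 for Morc1 over the 8 arrays. Nr5a2 and Morc1 were also not called without replicate 2 of Sox17 shRNA day 4. Nkx1-2, a homeobox factor of the caudal epiblast, had a higher change there too (2.81, adjusted p = 4.3e-04, and at most 0.00429 with an array left out).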

How the data were processed

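The deposited log2 expression values of 27 Affymetrix mouse arrays were made with RMA per the submitters' processing notes, and its version is not given in the sources used here. RMA quantile-normalizes arrays, so differences are relative to other genes and folds from low levels are understated. The number of arrays limits the precision. Of 45101 probe sets, 34945 had 1 symbol in the platform annotation, 932 several and 9211 were not listed. Of those with 1 symbol, 23523 were kept, which passed 5.53, the median over all arrays, on 2 or more arrays, and a gene took its probe set with the highest mean (13296 genes). A mean per arm and day was fitted to all 27 arrays with limma 3.58.1 in R 4.3.3 (13 residual degrees of freedom, intensity trend), tests were two-sided, and p-values were adjusted by Benjamini-Hochberg over all genes. On simulated data for the day 4 minus day 2 control comparison (13296 genes, 50 changed at each size), 32%, 76%, 98% and 100% of changes of 0.5, 1, 2 and 3 log2 units were recovered, with 6 false calls. The simulated noise was independent, had the same spread in all groups and held no difference in spike-in level between arrays. Those rates hold for that setting only and do not give the errors in the measured data. The fit pools the spread over groups, so a lone array left in a group is assumed to vary like the others.

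The members and the 34 gene lists were chosen with earlier results of these data known. Named were a fixed set of streak, endoderm and pluripotency genes, the 12 largest rises and falls among called genes whose arrays did not overlap, up to 4 called members per list with defining markers that did not pass, the 5 largest gaps each way between the day 4 arrays and the 5 largest differences each way between arms. Other list members were named after their values were seen.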

Additional observations from a re-analysis of the deposited data

Results flagged for a closer look

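The change from day 2 to day 4 differed between the arms, by limma's test of the difference of changes, for 62 genes with a higher and 22 with a lower change in the Sox17 shRNA arm. The 5 genes with the largest higher change were Fst (4.28), Morc1 (3.19), Tnfrsf19 (3.02, adjusted p = 0.00391), Rpl39l (2.81, adjusted p = 5.2e-05) and Nkx1-2 (2.81). Tnfrsf19, a receptor of the tumour necrosis factor family and Wnt target, was 1.70 with the mean of its probe sets and then did not pass (adjusted p = 0.0529, over all alternatives 0.00332 to 0.0529). The 5 with the largest lower change were Myl7 (-2.77), Mest (-2.37, adjusted p = 0.0018), an imprinted gene of mesoderm, Epas1 (-1.91, adjusted p = 0.0485), a hypoxia-inducible factor, Mlf1 (-1.87, adjusted p = 0.00711) and Foxj1 (-1.72, adjusted p = 0.00296), a factor of motile cilia. In the control arm Mest rose from a mean of 10.3 to 12.1, Foxj1 from 4.32 to 6.57 and Mlf1 from 5.74 to 7.42. Fitted on the 8 arrays alone, Morc1 (adjusted p 0.216), Myl7 (0.106), Mest (0.0866), Epas1 (0.174), Mlf1 (0.201) and Foxj1 (0.188) were not called, and the other 4 were. Epas1 lost its call when any 1 of 7 of the 8 arrays was left out, and Mlf1 without replicate 2 of control day 2 (adjusted p = 0.0525, over all alternatives 0.00157 to 0.201).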

How the results depend on the processing

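Alternatives to the filter, the probe set of a gene, the trend, the arrays fitted, centring, bioB and the replicate number kept the counts of control genes higher and lower within 1.5 times. With 1 of the 4 arrays left out, genes higher ranged from 1255 to 1947 and genes lower from 1224 to 2625. The replicate block gave 2202 genes higher and 2429 lower, and deviations of same-numbered control arrays correlated at 0.147. It changed the result of 0 of 150 of the genes named here, some of which, such as Cdh1, were not called in the main fit. For the difference between arms, the 8 arrays alone gave 11 higher and 4 lower, bioB as a covariate gave 108 and 85, the replicate block 66 and 25, and leaving out 1 array gave 26 to 133 higher and 10 to 175 lower. Signs reversed for Epas1 (-0.017 with the mean of its probe sets) and, with bioB, for Rpl27a (0.302), Arglu1 (0.242) and Pabpc4l (-0.053), which were not called in either fit. With 1 of the 4 arrays left out, the change also took both signs for Epas1 (-0.008 to 0.283), Ehf (-0.877 to 1.503), Rpl27a (-2.752 to 0.608), Stxbp5l (-1.613 to 0.093), Arglu1 (-1.276 to 0.369), Vwc2 (-0.001 to 2.507), Srr (-0.022 to 1.956) and Pabpc4l (-0.300 to 1.363). The cause was not tested. Among those 150 named genes, some lost their call with each of the 4 arrays left out. The losses were most frequent without replicate 2 of day 4 and least frequent without replicate 1 of day 4.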

Other observations

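Some gaps between the control replicates were as large at days 0 and 2 as at day 4. Ehf, an epithelial Ets factor, stood at 8.42 on replicate 1 and 5.71 on replicate 2 of day 0. On the same replicates it stood at 8.29 and 5.91 for day 2, at 8.33 and 6.50 for day 4, and at 6.99 and 6.58 for day 5. On replicates 1 and 2 of Sox17 shRNA day 4 it read 8.51 and 6.56. Runx1, a blood factor, differed between replicates for day 2 (7.36, 5.96) and day 4 (7.51, 6.29) but less so for day 0 (7.34, 7.46).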
